A study of Mus musculus with 12 samples.

Results

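The genes described here are Mpo, Ctsg, Prtn3, Elane and Plac8, 5 of the 35976 gene symbols counted in mouse haematopoietic stem cells (HSCs), and were taken by symbol from each of the 12 libraries. Mpo encodes myeloperoxidase, a haem enzyme that makes hypochlorous acid from hydrogen peroxide and chloride. Ctsg, Prtn3 and Elane encode cathepsin G, proteinase 3 and neutrophil elastase, serine proteases that are stored with myeloperoxidase in the primary (azurophil) granule of neutrophils. Plac8 encodes a small cysteine-rich protein that is found in myeloid cells and is not a granule protease, so it is kept apart from the 4 granule genes below.

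Primary granule genes are transcribed in an early window of granulocyte formation, in granulocyte-monocyte progenitors and promyelocytes, and are shut off before the cell matures. Genes of the later granules, such as Ltf, Camp and Ngp, are switched on after that window closes. In multipotent cells low levels of Mpo and of the proteases are commonly read as myeloid priming. PU.1, C/EBP, RUNX and MYB factors are known regulators of these genes, and cathepsin C (Ctsc) removes the propeptide that keeps the granule serine proteases inactive.

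The 12 libraries formed 6 groups of 2. The cells were labelled as HSCs and sorted as lineage-negative, c-Kit-positive and Sca-1-positive, a gate that also admits multipotent progenitors. The groups were stimulated KO and stimulated WT (animals aged 2 months, cells kept 24 hours ex vivo with cytokines), old fresh KO and old fresh WT (24 months, freshly isolated), and young fresh KO and young fresh WT (2 months, freshly isolated). KO stands for knockout of Cd38, which encodes an enzyme that consumes NAD, and WT for wild type. The cytokines, the animals' strain and sex, and whether libraries came from separate animals are not stated in the labels, so p-values measure only the spread between these samples. There was no stimulated group from old animals. The libraries held 1600155 to 5164720 counts.

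Some libraries stood apart or left their labels unchecked. Cd38 was counted in all 12 libraries, at 3.58 and 2.31 CPM (counts scaled to the library's TMM-adjusted total) in the stimulated KO group and 0.996 and 8.56 CPM in the stimulated WT group. Old fresh KO had 13.2 and 19.8 CPM, below old fresh WT at 74.3 and 41.4 CPM, while young fresh KO had 62.7 and 31.9 CPM, above young fresh WT at 17.5 and 24.5 CPM. Which part of Cd38 was removed is not in the labels, and tags come from the 3′ end, so Cd38 levels do not test the genotype labels. Young fresh WT replicate 1 had Xist at 0 and Y-linked genes summing to 200 CPM, whereas Xist ranged over 197 to 743 CPM elsewhere and the Y-linked sum did not exceed 6.61 CPM. Replicates of fresh groups also diverged. Of genes at 15 CPM or more in 1 replicate, 7.82% to 12.2% had no count in the other replicate of a fresh group, against 0 genes in stimulated KO and 1 gene in stimulated WT. Of 5 listed surface markers, Kit and Ly6a (Sca-1) belong to the stated gate, and Cd34, Cd48 and Flt3 lie outside it. The 5 summed to 578 to 1410 CPM over the 12 libraries, and at least 4 of the 5 were counted in each.

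Positions are given on mouse build mm10 from GENCODE M21. Mpo lies on chromosome 11 from 87793581 to 87804413 on the plus strand, and Ctsg on chromosome 14 from 56099881 to 56102574 on the minus strand. Prtn3 (chromosome 10, 79874476 to 79883174) and Elane (79886247 to 79888215) follow each other on the plus strand of chromosome 10, with 3072 bases between them. Plac8 lies on chromosome 5 from 100553725 to 100572245 on the minus strand. Plppr3, on the opposite strand, overlaps the annotated span of Prtn3. It had 101 to 194 CPM in stimulated libraries, 12 to 37.2 CPM in young fresh ones and 26.1 to 158 CPM in old fresh ones. Without a stated strand setting, reads of Prtn3 and Plppr3 cannot be told apart where they overlap. Gm11505, which runs antisense to Mpo, was not analysed here.

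The start regions of the 4 granule genes are printed because these genes moved together on stimulation. Each line gives the 250 bases before the RefSeq transcription start (GRCm38.p6), 5′ to 3′ in the direction of the gene. Capitals mark matches, on either strand, to letters of known binding motifs, and the lower-case bases matched none of them.
Mpo, chr11:87793534-87793783, strand +: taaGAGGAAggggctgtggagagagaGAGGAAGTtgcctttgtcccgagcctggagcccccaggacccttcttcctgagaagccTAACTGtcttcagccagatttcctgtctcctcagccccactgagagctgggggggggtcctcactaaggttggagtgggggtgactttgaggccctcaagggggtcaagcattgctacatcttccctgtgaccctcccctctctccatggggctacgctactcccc
Ctsg, chr14:56102575-56102824, strand −: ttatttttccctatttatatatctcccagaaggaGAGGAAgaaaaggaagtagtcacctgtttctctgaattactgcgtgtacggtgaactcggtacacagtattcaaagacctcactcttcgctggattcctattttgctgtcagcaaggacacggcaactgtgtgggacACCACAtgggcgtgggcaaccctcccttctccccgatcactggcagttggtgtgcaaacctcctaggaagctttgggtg
Prtn3, chr10:79879417-79879666, strand +: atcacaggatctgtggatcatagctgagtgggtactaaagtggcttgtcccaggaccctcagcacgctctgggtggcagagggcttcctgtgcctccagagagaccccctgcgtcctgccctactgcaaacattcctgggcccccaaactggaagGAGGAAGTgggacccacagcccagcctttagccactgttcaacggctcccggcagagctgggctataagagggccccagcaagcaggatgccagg
Elane, chr10:79886062-79886311, strand +: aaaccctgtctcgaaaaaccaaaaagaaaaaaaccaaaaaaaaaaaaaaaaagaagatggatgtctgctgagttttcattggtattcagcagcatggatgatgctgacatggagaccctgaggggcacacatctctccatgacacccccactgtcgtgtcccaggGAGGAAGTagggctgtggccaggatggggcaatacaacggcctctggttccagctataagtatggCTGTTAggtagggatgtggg

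The letters searched were GAGGAA for PU.1, TTNNGCAA for C/EBP, TGTGGT for RUNX and TAACNG for MYB, in windows from 250 bases before to 50 after the start. All 5 genes were matched to RefSeq, with 1 window each and a second one for Plac8. GAGGAA occurred in a window of 5 of 5 genes and in 28.3% of 32851 such windows in the RefSeq table. The longer run GAGGAAGT, which contains GAGGAA and was chosen after the sequences were seen, occurred in Prtn3, Elane and Mpo, at 95, 85 and 224 bases before the start, and in 3.2% of all windows. TGTGGT occurred in Ctsg and Plac8 (16.8% of all windows), TAACNG in Mpo and Elane (23.3%), and TTNNGCAA in the second Plac8 window (10.8%). A match to these letters is a description of the sequence and says nothing of binding.

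**Figure D1:**
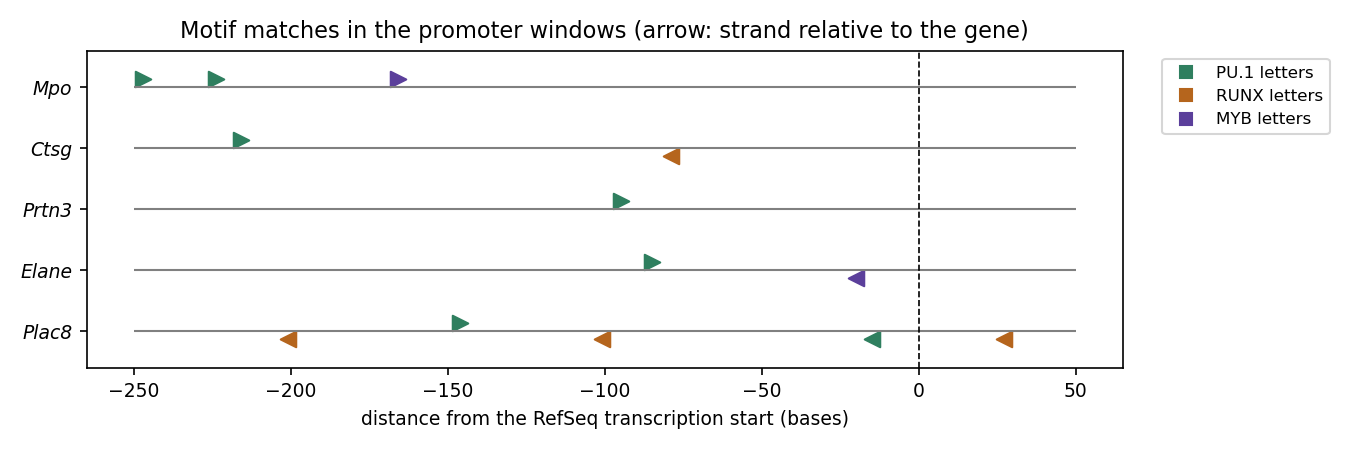
Matches to PU.1, RUNX and MYB letters in the start regions of Mpo, Ctsg, Prtn3, Elane and Plac8 (1 row per gene), by distance in bases from the RefSeq transcription start (dashed line). Each arrow is 1 match and points along its strand relative to the gene; PU.1 letters occur in 5 of 5 rows. The second Plac8 window is not drawn.

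Whether these transcripts changed after ex vivo culture with cytokines was addressed by comparing stimulated with fresh cells of young animals, both genotypes together. No group was cultured without cytokines, so the effect of cytokines and that of culture itself cannot be told apart here. The stimulated libraries were also deeper, with 2692245 to 3249721 counts against 1600155 to 1963635 in young fresh ones. They detected 13163 to 13450 genes, against 9116 to 9993 in young fresh libraries. The old fresh libraries, with 3796591 to 5164720 counts, detected 9548 to 10231 genes. The part of depth in the differences on stimulation was not tested. All 5 genes rose after stimulation. By group means the rise was 19.9-fold in WT for Mpo and Elane and 22.7-fold for Ctsg, and smaller for Prtn3 and Plac8. The level of every gene in each of the 4 stimulated libraries lay above its level in all 8 fresh libraries, a pattern that 5.02% of 11548 genes showed.

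Mpo, the gene of myeloperoxidase, stood at 878 and 543 CPM in stimulated KO and at 1090 and 864 CPM in stimulated WT. Fresh cells of young animals had 62.7 and 35 CPM in KO and 60.1 and 38.2 CPM in WT. The stimulated and fresh libraries did not overlap, and the fold of group means was 14.6 in KO and 19.9 in WT. Mpo rose by 4.09 ± 0.657 (log2 fold change ± SE; edgeR quasi-likelihood test, Benjamini-Hochberg adjusted p = 0.00303).

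Ctsg, the cathepsin G gene, had the largest log2 change of the 5. It stood at 481 and 260 CPM in stimulated KO and at 563 and 548 CPM in stimulated WT. Young fresh cells had 3.57 and 4.18 CPM in KO and 38.2 and 10.8 CPM in WT, the KO values resting on 15 counts over both libraries. The fold of means was 95.6 in KO and 22.7 in WT, and the log2 change was 5.54 ± 0.422 (adjusted p = 6.31e-06). The difference between these folds did not pass the test of the interaction of KO and stimulation (log2 2.06 ± 0.756, adjusted p = 0.885).

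Prtn3, the proteinase 3 gene, stood at 601 and 386 CPM in stimulated KO and at 643 and 550 CPM in stimulated WT. Before stimulation it stood at 75.4 and 55.9 CPM in young fresh KO and at 47.6 and 61.6 CPM in young fresh WT. Its fold of means, 7.52 in KO and 10.9 in WT, was the smallest of the 4 granule genes in either genotype. The log2 change was 3.18 ± 0.35 (adjusted p = 0.000141).

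Elane, the neutrophil elastase gene, stood at 465 and 325 CPM in stimulated KO and at 614 and 562 CPM in stimulated WT. Young fresh KO had 17.3 and 17.2 CPM and young fresh WT 35 and 23.9 CPM. The fold of means was 22.9 in KO and 19.9 in WT, and the log2 change was 4.42 ± 0.847 (adjusted p = 0.0101). That call was lost when any 1 of the 4 young fresh libraries was left out, with adjusted p-values of 0.0602 to 0.0972 and log2 changes of 4.29 to 4.56 in those fits.

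Plac8 stood at 1340 and 817 CPM in stimulated KO and at 1540 and 1660 CPM in stimulated WT. Its fresh levels in young animals were 170 and 210 CPM in KO and 178 and 56.4 CPM in WT. The fold of means was 5.68 in KO and 13.6 in WT, and the log2 change was 3.14 ± 0.443 (adjusted p = 0.00113). Young fresh WT replicate 2 was the lowest of the 12 libraries for this gene, and none of the fresh libraries reached the stimulated ones.

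**Figure D2:**
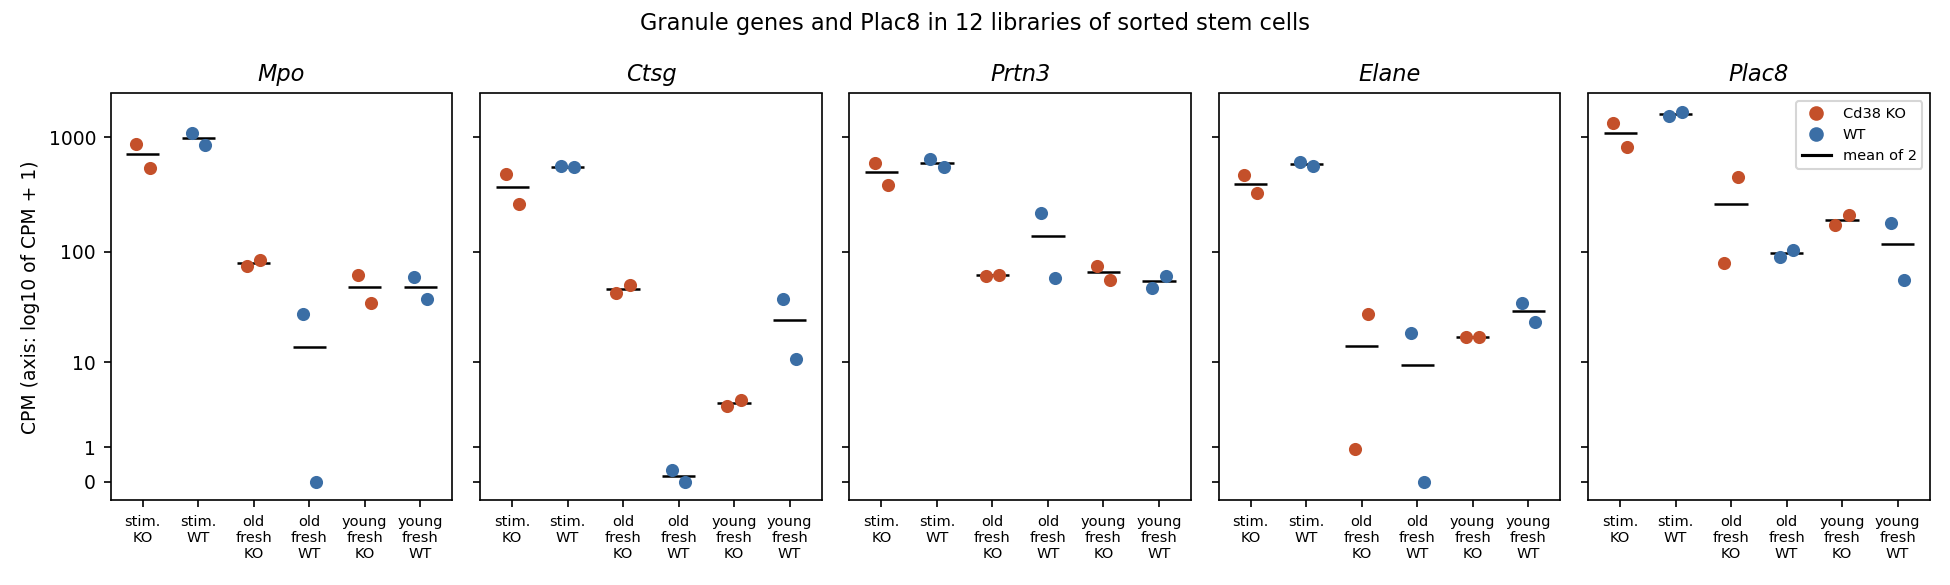
Level of Mpo, Ctsg, Prtn3, Elane and Plac8 in each library, in CPM on an axis of log10 of CPM + 1, by group (stim. is stimulated). Points are libraries, coloured by genotype, and bars are the mean of 2. In every panel the 4 stimulated libraries lie above the 8 fresh ones, and the old fresh WT libraries reach 0 for Mpo, Ctsg and Elane.

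All 5 of 5 genes tested rose, where 1.31% of 11548 genes rose, 1.51% fell and 2.81% changed in either direction. Their median log2 change was 4.09, against 0.268 over all genes. Without young fresh WT replicate 1, the library without Xist, 4 of 5 passed, Elane being the exception (adjusted p = 0.0864), and without young fresh WT replicate 2 Mpo was lost as well (adjusted p = 0.0515). Within KO alone 2 of 5 passed, Ctsg and Prtn3, where 0.649% of all genes did, and within WT alone 4 of 5, the exception being Elane, where 0.797% did. In cells from a bulk sort, more cells that carry these transcripts and more transcript per cell cannot be told apart.

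The 4 granule genes held 0.271% and 0.17% of all counts in stimulated KO and 0.314% and 0.274% in stimulated WT, against 0.00511% to 0.024% in the 8 fresh libraries. Their proportions varied little among the stimulated libraries. Mpo supplied 34.2% to 37.4% of the 4 genes' counts there, Ctsg 17.2% to 21.7%, Prtn3 21.8% to 25.5% and Elane 19.2% to 22.3%. In young fresh cells Ctsg supplied 2.24% and 3.72% in KO (95% Wilson intervals 1.09% to 4.56% and 1.9% to 7.17%) and 21.1% and 8.05% in WT (16.8% to 26.2% and 5.21% to 12.2%). Prtn3 supplied 47.4% and 49.8% there in KO and 26.3% and 45.8% in WT. These shares compare libraries with each other, and the intervals cover counting error only.

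**Figure D3:**
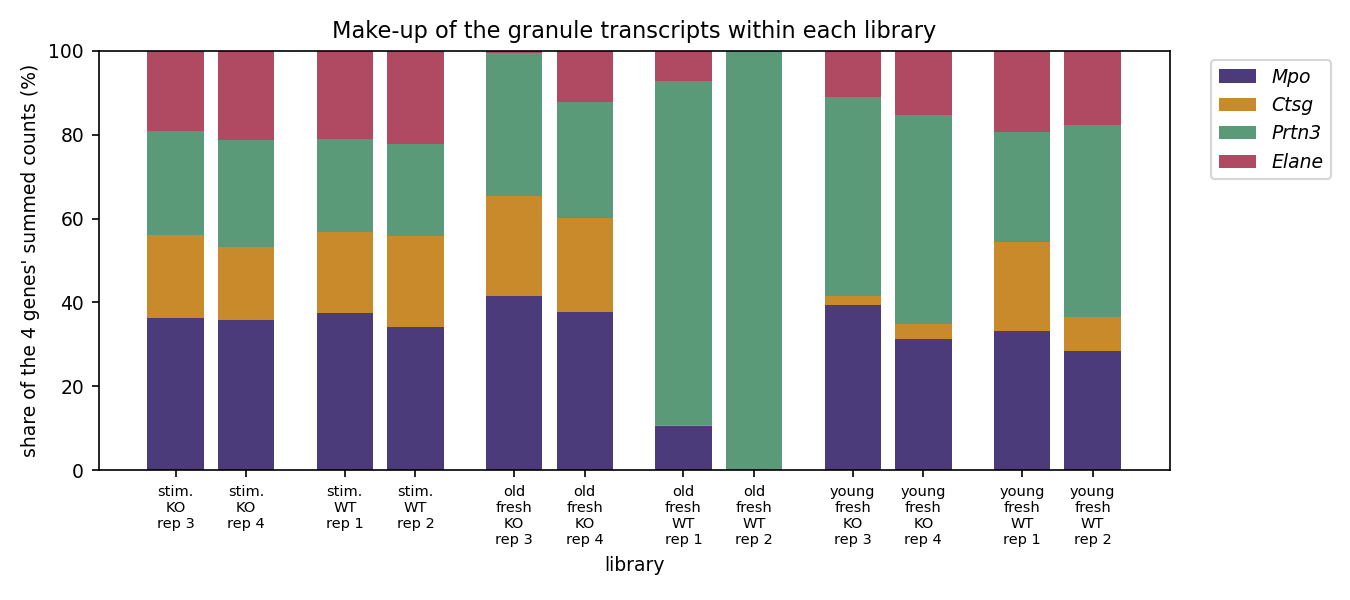
Share of the summed counts of Mpo, Ctsg, Prtn3 and Elane that each gene supplied, in percent, 1 bar per library with its group and replicate. The 4 stimulated bars are nearly alike, Prtn3 takes 82.2% and 100% in old fresh WT, and Ctsg takes 2.24% and 3.72% in young fresh KO.

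Other genes of the primary granule and its stage moved in both directions. This list, named other primary granule genes below, also holds genes that are not granule genes, such as Igfbp4 and the chaperone gene Calr. Of 14 listed, 12 were tested, 2 rose and 1 fell, with a median log2 change of 0.50. Cst7, whose product cystatin F inhibits cathepsin C, had no count in young fresh cells of either genotype. It stood at 74.3 and 46.9 CPM in stimulated KO and at 90.6 and 96.5 CPM in stimulated WT, 186-fold higher than a floor of 3 counts over the 4 young fresh libraries (adjusted p = 0.00113). That floor covers counting error only, and not the zeros that came and went between replicates of fresh groups. Igfbp4, which encodes a binding protein for insulin-like growth factors, rose by 1.18 ± 0.195 (adjusted p = 0.00339). Ctsc fell by 1.06 ± 0.242 on the log2 scale (adjusted p = 0.0271, lost without any 1 stimulated library or young fresh WT replicate 1, at most 0.18), to 94.1 and 85.6 CPM in the stimulated KO group and 73.4 and 82.3 CPM in the stimulated WT group, against 124 to 216 CPM in young fresh libraries. Prss57, a further serine protease of azurophil granules, had a log2 difference of 3.16 ± 1.09 (adjusted p = 0.161), and Serpinb1a, an inhibitor of these proteases, one of 0.678 ± 0.254 (adjusted p = 0.188). Bpi had no count in any library.

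Most genomic neighbours of the proteases were not detected. Cfd, 2637 bases beyond Elane, had no count in any library. Of 15 genes listed for the chromosome 14 cluster that holds Ctsg, 10 had no count in any library and 13 had none in the fresh ones. Mcpt8, a basophil protease gene of that cluster, stood at 15.4 and 8.92 CPM in stimulated KO and at 29.5 and 21.4 CPM in stimulated WT, and at 0 in all fresh libraries (adjusted p = 0.0752).

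None of 10 tested regulators passed (median log2 change 0.84), at edgeR's adjusted p under 0.05. Irf8, which favours monocytic over granulocytic fate, stood at 35.5 and 26.8 CPM in stimulated KO and 75 and 74.4 CPM in stimulated WT cells, against 0 to 5.63 CPM in young fresh libraries (adjusted p = 0.135). Cebpe, needed for the later granules, stood at 9.64 and 5.29 CPM in the stimulated KO group and 17.6 and 11.2 CPM in the stimulated WT group, and at 0 to 2.09 CPM in young fresh libraries (adjusted p = 0.2). Cebpa, needed to form granulocyte-monocyte progenitors, stood at 47.3 and 22.5 CPM and at 55.4 and 39.5 CPM in these groups, against 2.28 to 13.1 CPM (adjusted p = 0.326). Gfi1, a repressor needed for neutrophils, and Spi1, the PU.1 gene, had log2 differences of 0.847 ± 0.897 (adjusted p = 0.673) and 0.838 ± 0.899 (adjusted p = 0.677).

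Markers of other cells moved with stimulation, and their part in the rise was not tested. Of 15 tested markers of granulocyte-monocyte progenitors, 3 rose and none fell, with a median log2 change of 3.10. They were Ly6c2 (4.47 ± 0.762, adjusted p = 0.00547), Fcgr3 (7.4 ± 1.35, adjusted p = 0.00853) and F13a1 (3.1 ± 0.741, adjusted p = 0.0345). The 16 listed markers summed to 940 and 702 CPM in stimulated KO and to 1250 and 1100 CPM in stimulated WT, against 173 to 271 CPM in young fresh libraries. Csf1r, Cd33 and Il6ra were at 0 in all fresh libraries. Late neutrophil granule genes went the other way, with 4 of 13 falling, none rising and a median of -3.24. S100a8 fell by 2.32 ± 0.35 (adjusted p = 0.00187), S100a9 by 3.24 ± 0.508 (adjusted p = 0.00258), Ngp by 3.99 ± 0.661 (adjusted p = 0.00358) and Camp by 3.6 ± 0.645 (adjusted p = 0.00668). That list summed to 1000 and 793 CPM in stimulated KO and to 945 and 1520 CPM in stimulated WT, against 5190 to 9940 CPM in young fresh libraries. Of 8 tested lymphoid markers 1 rose, with a median log2 change of 5.54, or 4.4 with 3 genes absent from young fresh cells set at their bound. It was Dntt, the terminal transferase gene, with 67.2 and 27.7 CPM in the stimulated KO group and 371 and 767 CPM in the stimulated WT group (adjusted p = 0.0026). Its stimulated mean lay 743-fold above the floor of 3 counts over the young fresh libraries, a floor that covers counting error only. The 14 lymphoid markers counted summed to 171 and 122 CPM in stimulated KO and to 599 and 1320 CPM in stimulated WT, against 17.8 to 38.2 CPM in young fresh libraries. Of 12 long-term HSC markers, Hlf (-1.04 ± 0.169, adjusted p = 0.00321) and Meis1 (-1.09 ± 0.227, adjusted p = 0.0164) fell. Of 9 tested mast cell and basophil markers, Hdc rose by 3.45 ± 0.629 (adjusted p = 0.0073). Flt3, a receptor of multipotent progenitors and 1 of 5 listed surface markers, rose by 2.45 ± 0.489 (adjusted p = 0.0124). Of 9 tested erythroid markers Car2, a carbonic anhydrase gene, fell by 0.976 ± 0.133 (adjusted p = 0.000875), while the median of that list was 0.813. Leaving out 1 library at a time kept 11 to 15 of the 16 listed genes called on stimulation. Ly6c2 was lost without either young fresh WT library, F13a1 without either young fresh KO library or any stimulated one, and Meis1 without young fresh WT replicate 2, stimulated WT replicate 2 or either stimulated KO library. Flt3 was lost without either stimulated WT library or stimulated KO replicate 3, and Hdc without stimulated WT replicate 1 or stimulated KO replicate 3.

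**Figure D4:**
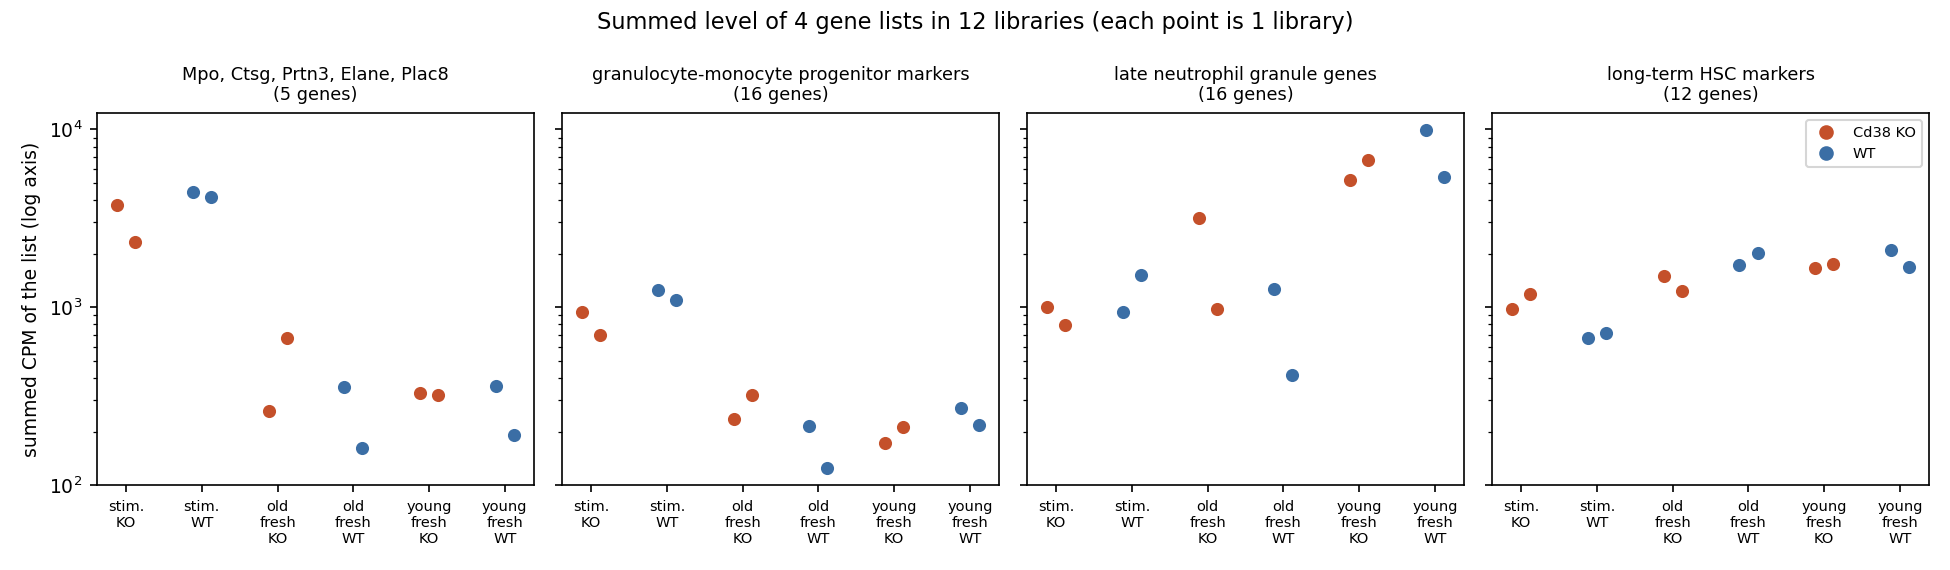
Summed CPM (log axis) of the 5 genes and of 3 marker lists in each library, by group; each point is 1 library, coloured by genotype. The 5 genes and the granulocyte-monocyte progenitor markers are highest in the 4 stimulated libraries, while late neutrophil granule genes are highest in the 4 young fresh ones, at 5190 to 9940 CPM.

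Whether the knockout altered these genes in stimulated cells was addressed by setting stimulated KO against stimulated WT. The point estimates of all 5 genes were negative, and none passed the test. Ctsg averaged 370 ± 160 CPM in KO libraries and 555 ± 10 CPM in WT libraries (SD, n = 2 each), a log2 difference of -0.56 ± 0.199 (adjusted p = 0.254). Elane averaged 395 ± 99 CPM in KO and 588 ± 37 CPM in WT, a difference of -0.55 ± 0.152 (adjusted p = 0.12). Plac8 averaged 1080 ± 370 CPM in KO and 1600 ± 84 CPM in WT, a difference of -0.547 ± 0.164 (adjusted p = 0.16). For these 3 genes both KO libraries lay below both WT libraries, as for 21.7% of all genes. Mpo averaged 711 ± 240 CPM in KO libraries and 976 ± 160 CPM in WT libraries (-0.434 ± 0.176, adjusted p = 0.351). Prtn3 averaged 494 ± 150 CPM in KO libraries and 597 ± 66 CPM in WT libraries (-0.25 ± 0.168, adjusted p = 0.661), and for both Mpo and Prtn3 the groups overlapped.

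The call count for these genes was 0 of 5 at an adjusted p under 0.05, where 1.23% of 10494 genes were called, 0.762% higher and 0.467% lower in KO. The median log2 difference of the 5 was -0.547, against a median near 0 (-0.000193) over all genes. At an unadjusted p under 0.05, edgeR gave 4 of 5, all but Prtn3, where 10.9% of all genes were under it. DESeq2 gave 0 at its adjusted p, limma voom with group weights gave 3 (227 of 11548 genes) and edgeR without a filter on low counts gave 4 (340 of 15455 genes). Replicate 4 was the lower KO library for every gene. Without it the log2 differences ran between -0.323 (Elane) and 0.027 (Prtn3), and without replicate 3 they ran between -1.07 (Ctsg, adjusted p = 0.03) and -0.596 (Prtn3), with Plac8 also called (adjusted p = 0.0345). Over all genes the 129 calls became 0 without KO replicate 4 and 67 without KO replicate 3.

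In the same comparison Irf8 fell by 1.23 ± 0.227 (adjusted p = 0.0162), the 1 regulator of 10 tested that was called. Without KO replicate 4, neither Irf8 (adjusted p = 0.378) nor any other listed gene was called between stimulated KO and WT, and without KO replicate 3 Irf8 was lost too. Gfi1 had a log2 difference of -0.774 ± 0.261 (adjusted p = 0.222), Spi1 of -0.572 ± 0.211 (adjusted p = 0.275), Cebpe of -0.909 ± 0.477 (adjusted p = 0.527) and Cebpa of -0.41 ± 0.31 (adjusted p = 0.708). Of 14 progenitor markers tested, Emb, which encodes the adhesion protein embigin, fell by 0.82 ± 0.175 (adjusted p = 0.0314), and the list's median was -0.589. None of 12 other primary granule genes was called, with a median of -0.2. Their smallest p-values belonged to Igfbp4 (-0.536 ± 0.15, adjusted p = 0.129) and Calr, a chaperone that binds the myeloperoxidase precursor (-0.512 ± 0.157, adjusted p = 0.173). Among 9 late neutrophil granule genes S100a9 (-0.57 ± 0.202, adjusted p = 0.253) and Camp (-0.895 ± 0.39, adjusted p = 0.401) had the smallest p-values, and none was called. Prss57 (-0.122 ± 0.223, adjusted p = 0.91), Ctsc (0.231 ± 0.183, adjusted p = 0.726), Serpinb1a (-0.278 ± 0.143, adjusted p = 0.514) and Mcpt8 (-1.03 ± 0.365, adjusted p = 0.254) did not pass either.

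Markers of other lineages moved between the genotypes in stimulated cells, and their part in the granule gene differences was not tested. Long-term HSC markers summed to 975 and 1190 CPM in KO and to 671 and 717 CPM in WT, and 2 of 12, Mllt3 (1.29 ± 0.252, adjusted p = 0.0207) and Mecom (1.16 ± 0.248, adjusted p = 0.0314), rose. Of 8 tested lymphoid markers 5 fell, among them Dntt (-3.55 ± 0.34, adjusted p = 0.000285), Satb1 (-1.67 ± 0.232, adjusted p = 0.00318) and Vpreb1 (-3.08 ± 0.555, adjusted p = 0.0142). Il7r stood at 0.551 and 0 CPM in KO and at 5.98 and 39.2 CPM in WT (adjusted p = 0.0107). Of the 5 listed surface markers Flt3 (-1.77 ± 0.239, adjusted p = 0.0024) and Cd34 (-0.784 ± 0.158, adjusted p = 0.0242) fell. Not called were Cd48 (-0.71 ± 0.235) and the gate genes Kit (0.575 ± 0.152) and Ly6a (0.861 ± 0.238), whose differences were positive. Of 8 megakaryocyte markers 3 rose, Pf4 (1.39 ± 0.211, adjusted p = 0.00476), Vwf (3.38 ± 0.646, adjusted p = 0.0185) and F2r (0.851 ± 0.182, adjusted p = 0.0323). Of 9 erythroid markers Car2 rose (0.727 ± 0.137, adjusted p = 0.0168), while the median of that list was -0.227. Of 15 listed genes called here, 0 were called without KO replicate 4, 9 without KO replicate 3, 8 without WT replicate 2 and 15 without WT replicate 1.

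By group means, Ctsg in old fresh cells showed the widest gap between genotypes of the 5 genes in the 3 settings. Ctsg stood at 43 and 50.6 CPM in old fresh KO, against 0.265 and 0 CPM in old fresh WT. The WT value rested on 1 count over both libraries, and the KO value on 431 counts. The ratio of these counts, scaled to library size, was 334 (exact 95% interval 59.7 to 13200, counting error only). The difference did not pass edgeR's test over the 8 fresh libraries (log2 8.04 ± 2.46, adjusted p = 1), with an unadjusted edgeR p of 0.00408. It passed with DESeq2 (log2 8.38, adjusted p = 0.00557) and with edgeR fitted to all 12 libraries (log2 8.01, adjusted p = 0.00108), where 5 genes were called. The fit of 12 libraries shares 1 spread between fresh groups and the stimulated ones, whose replicates lay closer together. Its common dispersion was 0.705, below the 1.07 of the 8 fresh libraries, so it understates the spread of fresh groups.

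Mpo stood at 75.2 and 84.7 CPM in old fresh KO, against 28.1 and 0 CPM in old fresh WT, a log2 difference of 2.52 ± 1.37 (adjusted p = 1). Mpo and Ctsg were the 2 of 5 genes with both KO libraries above both WT libraries, as for 15.6% of all genes. Prtn3 ran the other way in 1 library, with 61.6 and 62.4 CPM in KO libraries and 219 and 58.1 CPM in WT libraries (-1.14 ± 0.716, adjusted p = 1). Elane stood at 0.926 and 27.7 CPM in KO libraries and 18.8 and 0 CPM in WT libraries (0.617 ± 2.14, adjusted p = 1). Plac8 stood at 80.1 and 446 CPM in KO libraries and 90.4 and 103 CPM in WT libraries (1.46 ± 0.643, adjusted p = 1). For Prtn3, Elane and Plac8 the groups overlapped, and the replicates of at least 1 genotype differed widely.

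None of 10680 genes (0%) was called by edgeR between old fresh KO and WT, with 428 at an unadjusted p under 0.05, 102 called by DESeq2 and 2 by limma voom. At an unadjusted p under 0.05, edgeR gave 2 of the 5 genes, Ctsg and Plac8, where 4.01% of all genes were under it. The median of the 5 was 1.46, against 0 over all genes. A count of 0 in old fresh WT replicate 2 allowed up to 0.899 CPM at 3 counts, which covers counting error only. Mpo and Elane, at 28.1 and 18.8 CPM in old fresh WT replicate 1 and at 0 in replicate 2, were among the 804 genes with no count in 1 of these replicates and at least 15 CPM in the other, 9.86% of the 8154 genes that reached 15 CPM in either.

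The make-up of the granule transcripts differed along with these levels. Prtn3 supplied 34.1% and 27.7% of the 4 genes' counts in old fresh KO (95% Wilson intervals 30.8% to 37.5% and 25.1% to 30.4%). In old fresh WT it supplied 82.2% and 100% (79.7% to 84.5% and 98.1% to 100%). Plppr3, which overlaps Prtn3, stood at 84.9 and 158 CPM in old fresh WT and at 26.1 and 116 CPM in old fresh KO. Its part in the Prtn3 counts was not tested. Ctsg supplied 23.8% and 22.5% in KO, against 0.0998% and 0% in WT. The Mpo share of old fresh KO, 41.6% and 37.6%, and its Ctsg share lay just above their ranges in stimulated cells, while Elane supplied 0.512% in old fresh KO replicate 3 and 12.3% in replicate 4.

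Marker lists differed between old fresh KO and WT in both directions by their sums, and no listed gene was called. Late neutrophil granule genes summed to 3190 and 982 CPM in old fresh KO and to 1270 and 417 CPM in old fresh WT, with 11 and 7 of 16 counted in KO and 9 and 6 in WT. Among them Ngp had a log2 difference of 4.96 ± 0.989 (adjusted p = 0.14) and Camp one of 3.91 ± 0.853 (adjusted p = 0.243). Progenitor markers summed to 234 and 319 CPM in KO and to 215 and 124 CPM in WT. Their median log2 difference was 2.53, or 1.77 with 3 genes absent from 1 genotype set at their bound. Ly6c2 stood at 8.56 and 49.6 CPM in KO and at 0 in both WT libraries, and Csf2rb2 at 10.2 and 58.9 CPM in KO and at 0 in both WT libraries (adjusted p = 1 each). Megakaryocyte markers summed to 3150 and 2170 CPM in KO and to 1190 and 1000 CPM in WT, with no overlap. Among them Pf4 had a log2 difference of 2.09 ± 0.404 (adjusted p = 0.116) and Itga2b one of 2.05 ± 0.795 (adjusted p = 1). Other primary granule genes summed to 1830 and 2150 CPM in KO and to 1960 and 2280 CPM in WT. Monocyte, macrophage and dendritic markers summed to 49.3 and 121 CPM in KO and to 188 and 75.8 CPM in WT. The mast cell and basophil sums were 933 and 1280 CPM for KO libraries, against 1120 and 1410 CPM for WT libraries. Most of each came from Srgn (KO 666 and 899, WT 785 and 1090 CPM) and Gata2 (KO 237 and 341, WT 333 and 311 CPM). Srgn also counts towards the sum of other primary granule genes, so these lists are not independent. Mcpt8, Cma1, Tpsab1, Tpsb2 and Prss34, also mast cell and basophil markers, had no count in any fresh library. Ms4a3 stood at 4.4 and 21.1 CPM in KO and at 0 in WT (adjusted p = 1). Prss57 stood at 25.5 and 4.13 CPM in KO libraries and 2.39 and 0 CPM in WT libraries (adjusted p = 1), and Serpinb1a at 87.9 and 155 CPM, against 49.1 and 53.3 CPM (adjusted p = 1). Gfi1 and Irf8 were lower by value, Gfi1 at 1.16 and 0 CPM in KO against 31.3 and 10.5 CPM in WT, and Irf8 at 0 in both KO libraries against 18.6 and 0 CPM in WT (adjusted p = 1 each). Whether these transcripts bear on the Ctsg and Mpo values was not tested.

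None of the 5 genes passed edgeR's test between young fresh KO and WT. Ctsg averaged 3.87 ± 0.43 CPM in KO libraries and 24.5 ± 19 CPM in WT libraries (-2.66 ± 1.9, adjusted p = 0.961). Elane averaged 17.3 ± 0.052 CPM in KO libraries and 29.5 ± 7.8 CPM in WT libraries (-0.781 ± 2.15, adjusted p = 1). These were the 2 of 5 genes with both KO libraries below both WT libraries, as for 16.5% of all genes. Mpo averaged 48.8 ± 20 CPM in KO and 49.1 ± 15 CPM in WT, Prtn3 65.7 ± 14 CPM and 54.6 ± 9.9 CPM, and Plac8 190 ± 28 CPM and 117 ± 86 CPM, with overlapping libraries and adjusted p-values of 0.994 or 1. Without young fresh WT replicate 1 the log2 difference of Ctsg was -1.48 and that of Mpo 0.35. No one of the 5 had an unadjusted p under 0.05, where 4.86% of all genes (519 of 10680) did. Over all genes 0 (0%) were called by edgeR, 134 by DESeq2 and 0 by limma voom. Of the other primary granule genes, Lyz2 (-1.88 ± 1.07) and Prss57 (-4.66 ± 2.81) had the smallest p-values (adjusted p = 0.961 each). Among regulators these were Myb (-0.673 ± 0.353, adjusted p = 0.961) and Cebpd (2.69 ± 2.33, adjusted p = 0.98). Csf2rb stood at 1.02 and 0 CPM in KO and at 59.4 and 6.84 CPM in WT, and Fcgr3 at 0 in KO and at 8.13 and 0.57 CPM in WT (adjusted p = 0.961 each). Fcnb, at 0 in KO and 9.39 and 0 CPM in WT (adjusted p = 0.962), and Cxcr2, at 0 and 7.84 CPM in KO and 60.7 and 7.98 CPM in WT (adjusted p = 0.965), led the late neutrophil genes by p. In each of these 4 progenitor and neutrophil genes, young fresh WT replicate 1 was the highest of the young fresh libraries.

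The direction of the KO difference in Ctsg was thus negative in young and positive in old fresh cells by point estimate. The interaction of KO and age was 10.7 ± 3.07 on the log2 scale (adjusted p = 0.845) over the 8 fresh libraries. It passed with DESeq2 (11.1, adjusted p = 0.00198) and in the fit of 12 libraries (10.7, adjusted p = 0.000473), which understates the spread of fresh groups. For Mpo the interaction was 2.54 ± 1.86 (adjusted p = 0.927), for Prtn3 -1.4 ± 1.01 (adjusted p = 0.921), and for Elane and Plac8 the adjusted p was 1. None of 10680 genes (0%) was called by edgeR for this interaction, with 587 at an unadjusted p under 0.05, 87 called by DESeq2 and 0 by limma voom. For the interaction of KO and stimulation 0 of 11548 genes (0%) were called, with 577 at an unadjusted p under 0.05, 32 by DESeq2 and 0 by limma voom. Among the 5 genes Plac8 had an interaction with stimulation of -1.27 ± 0.822 (adjusted p = 0.903).

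**Figure D5:**
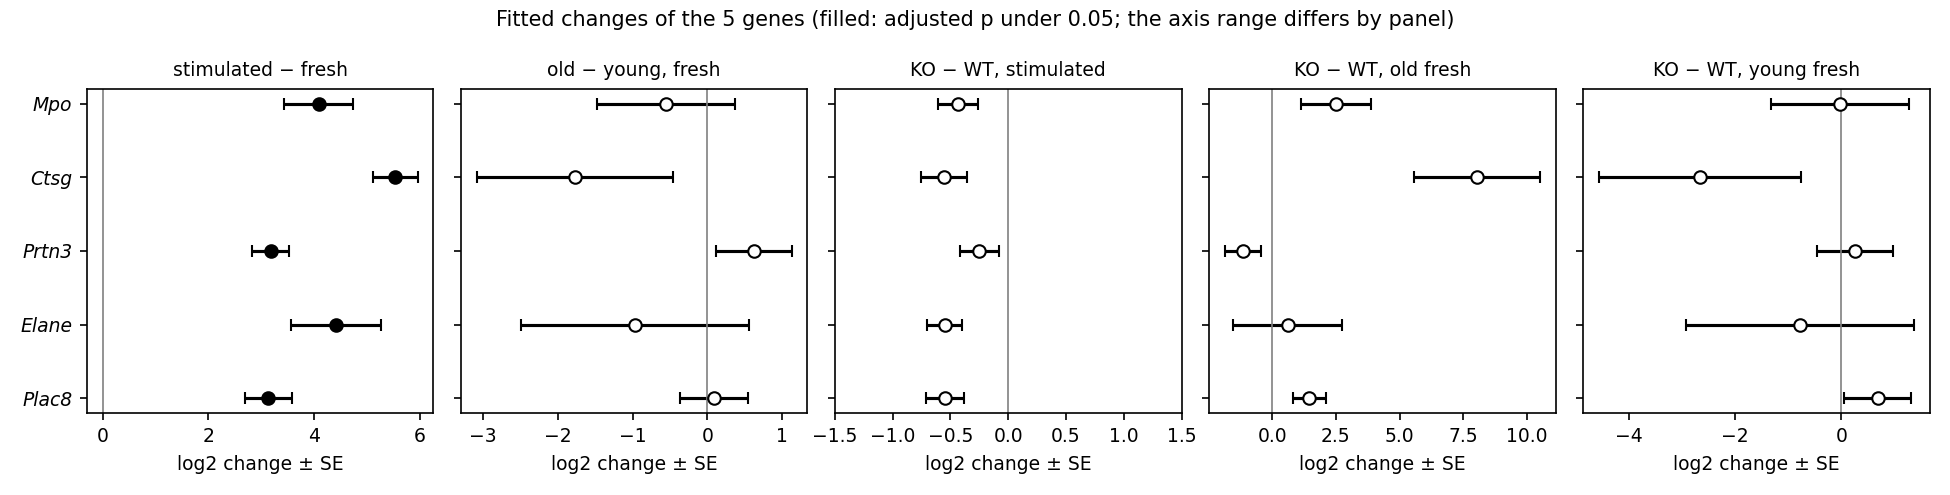
Fitted log2 change with its standard error for each of the 5 genes in 5 comparisons, edgeR quasi-likelihood fits; filled points have an adjusted p under 0.05 and the axis range differs by panel. Filled points appear for all 5 genes in stimulated minus fresh and in no other panel, and the standard errors are smallest in stimulated KO minus WT.

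Age was addressed by setting the 4 old fresh libraries against the 4 young fresh ones, genotypes together. None of the 5 genes passed, where 2.72% of 10680 genes were called, 1.76% higher and 0.964% lower in old cells. Old and young libraries overlapped for each of the 5, while 4.52% of all genes lay higher and 3.33% lower in every old library. The log2 differences were -1.77 ± 1.31 for Ctsg (adjusted p = 0.631), -0.968 ± 1.52 for Elane (adjusted p = 0.874), -0.556 ± 0.92 for Mpo (adjusted p = 0.881), 0.619 ± 0.505 for Prtn3 (adjusted p = 0.671) and 0.0873 ± 0.448 for Plac8 (adjusted p = 1). At an unadjusted p under 0.05 edgeR gave 0 of 5, where 13.2% of all genes were under it, and DESeq2 and limma voom called 0 of 5. The median was -0.556, against 0.0472 over all genes. Old libraries were all deeper than young fresh ones, so age and depth cannot be told apart here. Without old fresh WT replicate 1 the log2 difference of Mpo was -4.7, and old fresh WT then rested on replicate 2, with 0 Mpo counts. By group means, old fresh over young fresh was 0.286-fold for Mpo in WT and 1.64-fold in KO.

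Within WT, Ctsg had 1 count over both old fresh libraries and 80 counts over both young fresh libraries, a ratio scaled to library size of 170, higher in young fresh WT (exact 95% interval 29.6 to 6780, counting error only). Of the 80 counts, 61 came from young fresh WT replicate 1, the library without Xist, and the old minus young difference within WT did not pass in the fit of 8 libraries (log2 -7.12, adjusted p = 0.276). Within KO, Ctsg was 12.1-fold higher by mean in old fresh than in young fresh cells (log2 3.58 in the fit of 8 libraries, adjusted p = 0.64). Late neutrophil granule genes fell with age in 6 of 13 tested, with a median of -2.59, among them Ngp (-4.76 ± 0.67, adjusted p = 0.00027), Camp (-4.01 ± 0.596, adjusted p = 0.000468), S100a8 (-2.08 ± 0.31, adjusted p = 0.000468) and S100a9 (-2.59 ± 0.441, adjusted p = 0.00164). They summed to 417 to 3190 CPM in old fresh and to 5190 to 9940 CPM in young fresh libraries. Of the 12 genes tested on the other primary granule list, the chaperone gene Calr fell by 1.87 ± 0.233 (adjusted p = 6.81e-05), and the median of the list was -0.682. None of 9 tested regulators and none of 12 progenitor markers was called, with medians of -0.642 and -0.508. The smallest p-values there belonged to Gfi1 (-2.83 ± 1.44, adjusted p = 0.417) and Cbfb (0.435 ± 0.272, adjusted p = 0.541), and to Hk3, a hexokinase gene (5.31 ± 2.86, adjusted p = 0.454), and Ly6c2 (-3.29 ± 1.79, adjusted p = 0.464). Among markers of other cells, Hlf (-0.872 ± 0.2, adjusted p = 0.0193) and the surface marker Cd34 (-1.42 ± 0.294, adjusted p = 0.0102) fell with age. The medians of their lists were positive, 0.241 for the long-term HSC markers and 0.221 for the surface markers. Car1 (1.96 ± 0.44, adjusted p = 0.0172), Pf4 (1.33 ± 0.28, adjusted p = 0.0113) and Fli1 (0.851 ± 0.22, adjusted p = 0.042) rose. Each of these 5 calls was lost in at least 1 of the 8 fits that left out a library, and Fli1 in all 8, while Ngp, Camp, S100a8, S100a9 and Calr were called in each.

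Over the 6 groups, stimulated WT ranked first by mean and stimulated KO second for all 5 genes, and their libraries overlapped for Mpo and Prtn3. Among the fresh groups the order differed by gene. Old fresh KO ranked first for Mpo, Ctsg and Plac8, old fresh WT for Prtn3 and young fresh WT for Elane. Old fresh WT ranked last for Mpo, Ctsg, Elane and Plac8, and young fresh WT for Prtn3. Fresh groups next to each other in this order did not overlap in Ctsg (old KO above young WT, young WT above young KO, young KO above old WT), in Mpo (old KO above young WT, young KO above old WT) and in Elane (young WT above young KO). Of all genes, 19.2% were higher in both old fresh KO libraries than in both young fresh WT libraries, 16.5% lower in both young fresh KO libraries than in both young fresh WT ones, and 16.3% higher in both young fresh KO libraries than in both old fresh WT ones. The other fresh neighbours overlapped or differed by less than the spread between replicates.

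The genes whose pattern was most like the mean of the 4 granule genes were ranked by Pearson's r of log2 CPM over the 12 libraries, among 6287 genes that averaged 20 CPM or more. Group means were highest in the 2 stimulated groups for each of the 8 genes named next, so r is given as a description, with its value over the 8 fresh libraries after it. The first 8 were Snrnp25, a minor spliceosome gene (0.942, fresh 0.754), Alyref, an mRNA export factor (0.941, fresh 0.756), Taldo1, the transaldolase of the pentose phosphate pathway (0.929, fresh 0.71), and Nkg7, a granule membrane gene of lymphoid and myeloid cells (0.927, fresh 0.858). Clec12a, an inhibitory receptor of myeloid cells (0.914, fresh 0.796), Anxa3, an annexin of neutrophil granules (0.908, fresh 0.619), Frat2, an inhibitor of GSK-3 (0.907, fresh 0.77), and Rpa2, a subunit of the single-strand DNA binding complex (0.906, fresh 0.613), followed. Nkg7 averaged 117 ± 34 CPM in the stimulated KO group and 186 ± 58 CPM in the stimulated WT group, 25.8 ± 33 CPM in old fresh KO and 1.86 ± 2.6 CPM in old fresh WT, and 26.5 ± 12 CPM in young fresh KO and 14.4 ± 0.94 CPM in young fresh WT.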

How the data were processed

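Mouse HSC libraries were made with the QuantSeq 3′ FWD kit from total RNA, per the labels' protocols. The authors deposited raw read counts per gene symbol, made with HISAT2 2.2.1 and HTSeq 0.9.1 on build mm10, per the submitters' processing notes, which also name DESeq2 1.34.0. The annotation and strand setting are not given in the sources used here. A 3′ kit reads the transcript end, so counts do not scale with length.

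Counts were analysed in R 4.3.3 with edgeR 4.0.16 (TMM, filterByExpr with a minimum count of 10 and total of 15, quasi-likelihood test, Benjamini-Hochberg adjustment over all genes tested, threshold 0.05). Stimulated KO and WT were compared over 4 libraries (10494 genes), fresh groups over 8 (10680) and stimulation over 12 (11548). All 5 members passed each filter. Samples were grouped by title, genotype and treatment labels. SE is the log2 change divided by the root of F. A prior count of 2 entered log2 levels, and 0 counts were bounded at 3 counts. DESeq2 1.42.0, limma voom 3.58.1, RLE scaling, other sets of libraries and each library left out were alternatives, and the contrasts within 1 genotype were added after the data had been seen. Fits were tested on simulated data. No pairing of samples by replicate number was seen (correlations of deviations -0.0144 to 0.0119). The wide divergence of fresh replicates could hide one, so pairing is not excluded.

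The 5 members, the gene lists and the tests were chosen with earlier results of these data known. Every member is given in every comparison. Listed genes were named where called, up to 4 per list and comparison by smallest p, otherwise, for the other granule, regulator, progenitor and late neutrophil lists, the 2 smallest p-values, with 10 set genes in any case (Cebpa, Cebpe, Gfi1, Spi1, Irf8, Ctsc, Serpinb1a, Prss57, Cfd and Mcpt8). Remaining lineage lists are named where called, and otherwise only beside a result. Listed calls were also refitted with each library left out, added after the data had been seen.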

Additional observations from a re-analysis of the deposited data

How the results depend on the processing

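All 5 genes kept their call on stimulation with RLE scaling, DESeq2, limma voom, no filter, the 8 young libraries and the replicate block. Within KO 2 passed (Mpo 3.86, adjusted p = 0.0804; Elane 4.51, 0.122; Plac8 2.51, 0.0853), and with 1 library left out 3 to 5. Over all genes 325 were called, against 521 without a filter, 774 by DESeq2, 712 by voom and 120 to 414 with 1 library left out. For stimulated KO against WT, where 129 genes were called, the count of members was 4 without a filter (340 genes called; Mpo -0.439, Ctsg -0.565, Elane -0.556, Plac8 -0.553), 3 by voom (227 genes; Ctsg -0.623, Elane -0.579, Plac8 -0.586), 0 in the fit of 12 libraries (0 genes) and 0 to 2 with 1 library left out (0 genes without KO replicate 4, 67 without KO replicate 3, 76 without WT replicate 2, 190 without WT replicate 1). For old fresh KO against WT it was 1, Ctsg, by DESeq2 and in the fit of 12 libraries (102 and 5 genes), and 0 with 1 library left out. For the interaction of KO and age it was 1, Ctsg, by DESeq2 and in the fit of 12 libraries (87 and 4 genes). Without a filter 10 genes were called in young fresh KO against WT, 18 in old, and 10 and 14 for the interactions with stimulation and age. For age it was 0 to 1 with 1 library left out, while the 291 genes called became 450 without a filter, 924 by DESeq2, 577 in the fit of 12 libraries, 162 to 326 with 1 library left out, and 93 within KO and 86 within WT. The cause of these shifts was not tested.

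Signs turned for Plac8 with age under the replicate block (-0.0375) and within WT (-0.3), and within KO for Mpo (0.713), Ctsg (3.58) and Prtn3 (-0.0813). With 1 library left out, ranges of the log2 change crossed 0 in stimulated KO against WT for Prtn3 (-0.596 to 0.027), in young fresh cells for Mpo (-0.499 to 0.35), and in old fresh cells for Prtn3 (-1.81 to 0.0931), Elane (-3.28 to 8.34) and Plac8 (-0.269 to 2.21). The same held for Plac8 with age (-0.763 to 0.618), for the interaction with stimulation in Elane (-0.105 to 0.47) and Mpo (-0.838 to 0.0297), and for that with age in Plac8 (-0.962 to 1.52) and Elane (-2.51 to 9.11). In these fits a group with 1 library is assumed to vary like the other groups. As a block, the replicate numbers left 5 of 5 members called on stimulation (468 genes called) and 0 with age (438 genes) or in either interaction (0 genes with stimulation, 7 with age). Fresh libraries hold 1600155 to 5164720 counts with a common dispersion of 1.07, against 0.033 in stimulated cells, which limits what the fresh comparisons can call.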
